A study of Homo sapiens with 20 samples.

Results

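Transcripts of 6 metalloproteinase genes and 3 genes for their tissue inhibitors were followed in cultured human pericytes given eNAMPT, PDGF-BB or both. ADAMTS1, ADAMTS6, MMP1, MMP2, MMP3, MMP14, TIMP1, TIMP2 and TIMP3 were chosen by name, with earlier results of these data known. They are 9 of the 58676 genes in the deposited count table, and all 9 had enough counts to be tested. The cells were immortalized wild-type pericytes of 1 line (CL 05008-CLTH, from Celther), so no group speaks for a second line or for pericytes in tissue. Recombinant human eNAMPT, the secreted form of the NAD-synthesis enzyme NAMPT, was used at 500 ng/mL, and recombinant human PDGF-BB, the growth factor that acts on pericytes through PDGFRB, at 20 ng/mL. The 4 groups, all harvested after 4 hours, were eNAMPT+PDGF-BB, PDGF-BB alone, eNAMPT alone and control cells given neither protein, with 5 libraries each. The labels call the 5 libraries biological replicates but do not say whether they came from separate cultures or days, so p-values measure the spread between these libraries. The study addresses how eNAMPT acts on pericytes.

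Matrix metalloproteinases (MMPs) and ADAMTS enzymes are zinc-dependent proteinases that cut collagens, proteoglycans and other proteins of the extracellular matrix, and TIMPs bind their catalytic site and block it. Most MMPs are made as inactive proenzymes, so transcript level is not activity. Around blood vessels, pericytes share a basement membrane with endothelial cells, and their TIMP3 is known for helping to keep that membrane stable.

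The libraries held 2894878 to 4011066 gene counts, with 8.27 to 9.71% of counts on mitochondrial genes and 1.57 to 2.91% on spike-in RNA, and the ranges of the 4 groups overlapped in all 3 measures. The pericyte label was set against 11 markers: PDGFRB (median 130 CPM, the level scaled to library size by TMM), CSPG4 (64.1 CPM) and RGS5 (20.4 CPM) were present, and DES was near 0 (0.324 CPM). NOTCH3, ABCC9 and KCNJ8 were low (8.54, 5.94 and 3.47 CPM). None of the 10 pericyte markers tested was called in any comparison, and their summed level was 392 to 471 CPM with both proteins, 387 to 434 CPM with PDGF-BB, 346 to 417 CPM with eNAMPT and 373 to 433 CPM in control cells. The endothelial markers CDH5, VWF and EMCN had medians of 0, as did the leukocyte markers PTPRC and CD3E, the smooth muscle marker MYH11 and the epithelial marker CDH1. On the endothelial list TIE1, TEK and PECAM1 were at low levels, with medians of 3.29, 2.18 and 1.54 CPM. Other genes of these lists were expressed: CD14 of the leukocyte list had a median of 17.5 CPM, and SMTN and CNN1 of the smooth muscle list had 140.2 and 34.9 CPM. Of the fibroblast markers, COL1A1 (median 3176 CPM), COL1A2 (936 CPM), FBLN1 (164 CPM), THY1 (100.1 CPM) and FAP (30.2 CPM) were expressed. DCN and LUM were low (5.42 and 4.32 CPM), and PDPN was at 0 counts. No marker of these lists was called except KRT18, a keratin on the epithelial list. KRT18 averaged 211 ± 26.7 CPM with both proteins, 189.6 ± 25.8 CPM with PDGF-BB, 150.2 ± 19.5 CPM with eNAMPT and 161 ± 16.6 CPM in control cells (SD, n = 5 each), and it was called in both proteins against control (adjusted p = 0.0154) and against eNAMPT (adjusted p = 0.00136). The 7 epithelial markers, of which 2 were tested, summed to 201 to 254 CPM with both proteins, 173 to 237 CPM with PDGF-BB, 136 to 181 CPM with eNAMPT and 155 to 197 CPM in control cells, nearly all from KRT18, and their part in the results below was not tested. In bulk RNA, a larger share of expressing cells and more RNA per cell cannot be told apart.

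Levels per kilobase of exon allow genes to be compared if reads cover the whole transcript, which was not tested here. On this scale the inhibitors had the highest means of the 9 genes in control cells. With PDGF-BB alone MMP14 averaged 71.4 CPM per kb and TIMP2 64.3, and with both proteins 66.2 and 64.2. In control cells TIMP1, a soluble inhibitor of most MMPs, stood at 307 ± 28.1 CPM per kb (SD, n = 5). TIMP3, which binds to the matrix and also blocks ADAMTS and ADAM enzymes, followed at 152 ± 19.6 CPM per kb. TIMP2, which inhibits MMPs and takes part in activation of MMP2, was at 65.3 ± 8.42 CPM per kb. MMP14, the membrane-bound proteinase that activates pro-MMP2, had 60.5 ± 7.34 CPM per kb, within the spread of TIMP2. ADAMTS1, which cuts the proteoglycans versican and aggrecan, was next at 23.5 ± 3.57 CPM per kb. The last 4 genes lay close together, each within the spread of its neighbour in the order: the gelatinase MMP2 (8.01 ± 1.39), the interstitial collagenase MMP1 (5.83 ± 2.81), ADAMTS6 (5.64 ± 1.37) and the stromelysin MMP3 (5.00 ± 1.43 CPM per kb). ADAMTS6 belongs to the same family as ADAMTS1 and acts on components of the pericellular matrix. The ends of this order, MMP2 and MMP3, had means further apart than their SDs, although their libraries overlapped (6.22 to 9.64 and 3.37 to 7.02 CPM per kb).

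**Figure D1:**
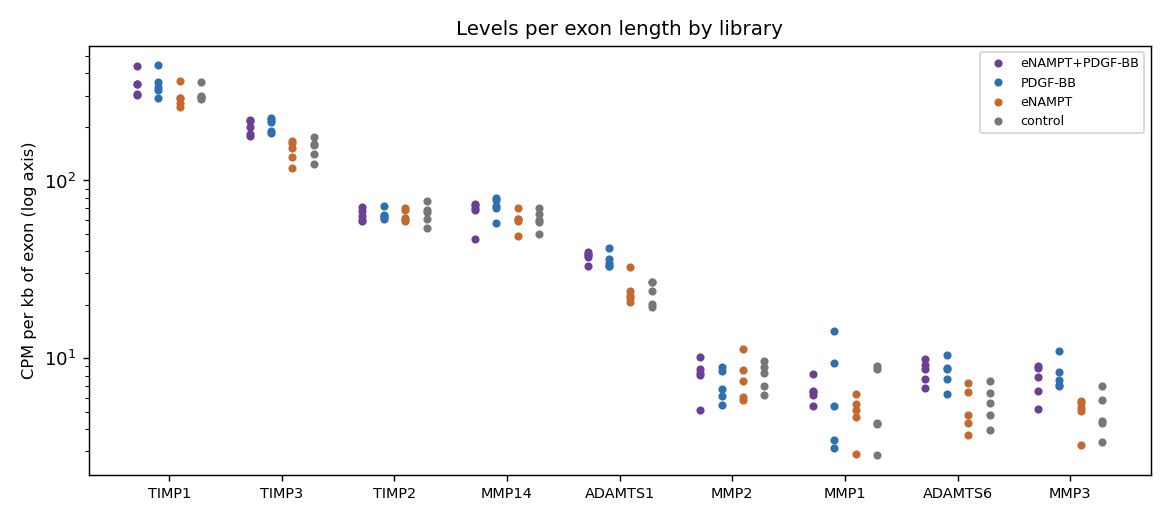
Transcript level of the 9 genes per kilobase of exon (CPM per kb, log axis), with a point for each of the 5 libraries of each of the 4 groups. TIMP1 and TIMP3 lie above the others (means of 307 and 152 in control cells), and the points of MMP2, MMP1, ADAMTS6 and MMP3 overlap (control means of 5.00 to 8.01).

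In the fit without a replicate block, PDGF-BB was followed by more transcript of 3 of the 9 genes, ADAMTS1, ADAMTS6 and TIMP3, and by less of none. They were called (adjusted p under 0.05) in PDGF-BB against control, where 1.21% of the 12111 genes tested were called, 1.05% higher and 0.165% lower. The same 3 genes, and no other of the 9, were called with both proteins against control (background 1.98% called, 1.63% higher and 0.347% lower) and with both proteins against eNAMPT alone (background 1.53% called, 1.18% higher and 0.347% lower). PDGF-BB against control and both proteins against control share their control libraries. Both proteins against control and both against eNAMPT share the eNAMPT+PDGF-BB libraries. The means in both proteins against eNAMPT come from none of the libraries of PDGF-BB against control. All 20 libraries enter the estimate of spread in each comparison, so the comparisons are not independent. With a replicate block, edgeR called 6 of the 9 genes in PDGF-BB against control, adding MMP3, MMP14 and TIMP1. In both against control and in both against eNAMPT it called 4, adding TIMP1. The labels do not say whether same-numbered libraries belong together. Without the block, the median log2 fold change of the 9 genes was 0.31 in PDGF-BB against control, 0.19 in both against control and 0.41 in both against eNAMPT. Over all genes tested those medians were -0.01, -0.01 and -0.00. Because the 9 genes were chosen with earlier results of these data known, these shares and medians are no test of the gene families.

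ADAMTS1 (ENSG00000154734, chr21:26835747-26845409, minus strand, GRCh38) rose in every comparison with PDGF-BB. In replicate order it had 263, 233, 269, 272 and 278 CPM with both proteins and 234, 256, 234, 241 and 293 CPM with PDGF-BB alone. It had 146, 158, 170, 155 and 232 CPM with eNAMPT alone and 190.3, 143, 169, 138 and 191 CPM in control cells. All 10 libraries with PDGF-BB lay above all 10 without it, although the highest eNAMPT library (232 CPM) came within 1 CPM of the lowest library with both proteins (233 CPM). The log2 fold change was 0.60 ± 0.10 (SE) in PDGF-BB against control (95% interval 0.40 to 0.80, adjusted p = 0.000144). In both proteins against control it was 0.66 ± 0.10 (adjusted p = 1.41e-05), and in both against eNAMPT 0.61 ± 0.10 (adjusted p = 7.62e-05), each from edgeR's quasi-likelihood test with Benjamini-Hochberg adjustment. These amount to 1.51-fold, 1.58-fold and 1.53-fold.

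TIMP3 (ENSG00000100234, chr22:32801701-32863043, plus strand) rose in the same 3 comparisons. It had 995, 917, 820, 845 and 1005 CPM with both proteins and 1031, 1006, 847, 870.0 and 985.2 CPM with PDGF-BB alone. It had 699, 745, 620, 543 and 767 CPM with eNAMPT alone and 808, 725, 652, 571 and 736 CPM in control cells. Here too every library with PDGF-BB lay above every library without it. Its log2 fold change was 0.44 ± 0.08 (SE) in PDGF-BB against control (95% interval 0.27 to 0.61, edgeR quasi-likelihood adjusted p = 0.00134), or 1.36-fold. In both proteins against control it was 0.39 ± 0.08 (adjusted p = 0.00419), and in both against eNAMPT 0.44 ± 0.08 (adjusted p = 0.00105). ADAMTS1 and TIMP3 were thus the 2 of 9 genes whose groups did not overlap in these comparisons, against 1.52%, 1.75% and 1.75% of all genes tested with non-overlapping, higher groups.

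ADAMTS6 (ENSG00000049192, chr5:65148736-65481920, minus strand) rose by a similar factor from a lower level. It had 58.7, 65.8, 78.7, 74.6 and 85.1 CPM with both proteins and 74.4, 54.3, 65.9, 75.8 and 89.0 CPM with PDGF-BB alone. It had 31.7, 40.9, 55.3, 37.3 and 62.0 CPM with eNAMPT alone and 33.7, 41.01, 54.8, 48.1 and 63.8 CPM in control cells. All 5 libraries of each PDGF-BB group lay above the mean of the group without it, but the ranges overlapped. The fifth replicates of the eNAMPT and control groups reached 62.0 and 63.8 CPM. Control replicate 3 (54.8 CPM) also lay above PDGF-BB replicate 2 (54.3 CPM). The log2 fold change was 0.58 ± 0.15 (SE) in PDGF-BB against control (95% interval 0.27 to 0.88, edgeR quasi-likelihood adjusted p = 0.0402), 0.59 ± 0.15 in both against control (adjusted p = 0.0220) and 0.67 ± 0.15 in both against eNAMPT (adjusted p = 0.00718).

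**Figure D2:**
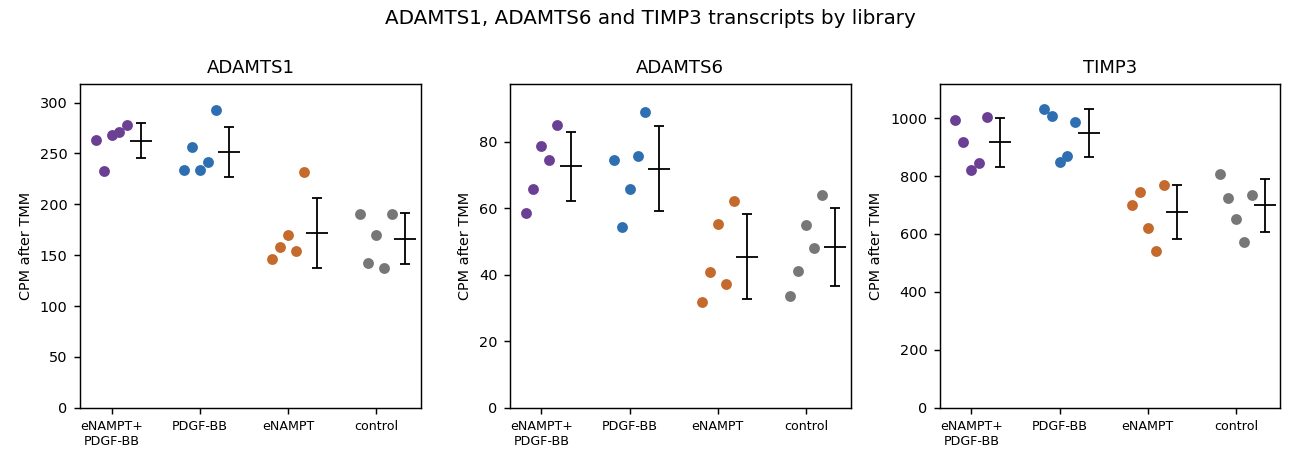
Level of ADAMTS1, ADAMTS6 and TIMP3 (CPM after TMM scaling) in each of the 20 libraries, as points in replicate order within a group, with the group mean and 1 SD beside them. For ADAMTS1 and TIMP3 the 10 libraries with PDGF-BB stand above the 10 without it, and for ADAMTS6 the ranges overlap.

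Without a replicate block in the fit, the ADAMTS6 calls against control depended on single libraries. Those of ADAMTS1 and TIMP3 stood whichever 1 of the 20 libraries was left out. In PDGF-BB against control, the adjusted p of ADAMTS6 became 0.179, 0.131 and 0.0896 without control replicates 1, 2 and 4, and 0.0906, 0.0549, 0.0952 and 0.156 without PDGF-BB replicates 1, 3, 4 and 5. In both proteins against control it became 0.118, 0.0820 and 0.0526 without control replicates 1, 2 and 4, and 0.0718, 0.0504 and 0.0838 without eNAMPT+PDGF-BB replicates 3, 4 and 5. Its log2 fold change against control stayed between 0.47 and 0.71 in all these fits. In both proteins against eNAMPT, the ADAMTS6 call stood whichever 1 of the 20 libraries was left out (edgeR quasi-likelihood adjusted p = 0.00109 to 0.0497). With the other deposited count table the adjusted p of ADAMTS6 in PDGF-BB against control was 0.0529. With a replicate block and all 20 libraries, ADAMTS6 kept its call in that comparison, at a log2 fold change of 0.59. Its edgeR quasi-likelihood adjusted p was then under 0.01, against 0.0402 without the block. The labels do not say whether same-numbered libraries belong together.

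Scaling by spike-in counts instead of TMM left none of the 9 genes called, with adjusted p-values of 0.161 to 0.541 for ADAMTS1, 0.442 to 0.631 for ADAMTS6 and 0.694 to 0.875 for TIMP3 over the 3 comparisons. Under it the log2 fold changes of the 3 genes in PDGF-BB against control were 0.62, 0.58 and 0.49. Spike-in scaling moved the median of all genes by over 0.1 on the log2 scale in both proteins against control (to -0.14) and against eNAMPT (to -0.14), where the fold changes of ADAMTS1 were 0.55 and 0.49, of ADAMTS6 0.47 and 0.54, and of TIMP3 0.27 and 0.30. In the authors' deposited table of comparisons, ADAMTS1 and TIMP3 had adjusted p-values of 1.48e-05 and 0.000380 for control and PDGF-BB, while ADAMTS6 had 0.0558. For control and both proteins, the authors' deposited table gave 4.21e-07 for ADAMTS1, 0.00268 for TIMP3 and 0.0376 for ADAMTS6. For eNAMPT and both proteins, the authors' adjusted p-values were 6.22e-06, 0.000312 and 0.00997 for the same genes in that order. Their log2 fold changes for control and PDGF-BB, with control named first, were -0.501, -0.387 and -0.386. Those of all 147 genes called here in PDGF-BB against control had the sign opposite to the fold changes given here.

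Promoter sequence is shown for the called genes that the RefSeq table covers, ADAMTS6 and TIMP3, since both transcripts were higher after PDGF-BB. Each window runs from 250 bases before the transcription start to 50 bases from it, 5′ to 3′ on the gene's own strand, in RefSeq on GRCh38.p14: chr5:65481871-65482170 (minus strand) for ADAMTS6 and chr22:32801455-32801754 (plus strand) for TIMP3. Capitals mark a match to a searched motif.
ADAMTS6: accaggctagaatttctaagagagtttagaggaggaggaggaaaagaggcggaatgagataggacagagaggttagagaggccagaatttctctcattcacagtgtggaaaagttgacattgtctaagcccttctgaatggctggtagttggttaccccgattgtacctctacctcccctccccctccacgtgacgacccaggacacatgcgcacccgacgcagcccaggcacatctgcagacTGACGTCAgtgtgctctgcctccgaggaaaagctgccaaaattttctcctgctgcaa
TIMP3: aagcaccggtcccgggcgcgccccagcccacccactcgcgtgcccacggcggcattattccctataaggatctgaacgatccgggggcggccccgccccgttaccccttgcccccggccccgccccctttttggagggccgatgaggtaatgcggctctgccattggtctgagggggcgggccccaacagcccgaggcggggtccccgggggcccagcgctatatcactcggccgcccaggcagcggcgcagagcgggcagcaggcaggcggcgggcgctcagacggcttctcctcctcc
The capitals in ADAMTS6 are the cyclic AMP response element TGACGTCA, which reads alike on both strands and ends on the first transcribed base. It occurs in 1.85% of the 35116 promoter windows of the same length. The TIMP3 window held none of the motifs searched on both strands, which were TGACGTCA, the AP-1 motif TGACTCA (4.95% of windows), the EGR motifs GCGTGGGCG (0.795%) and GCGGGGGCG (5.07%), the ETS motif CCGGAAGT (4.14%), the SRF CArG box (1.29%) and an NF-kB motif (11.3%). Of the 9 genes, 4 had a promoter window, and those of MMP14 and TIMP1 held none of these motifs either. A match describes the letters of the window and is no evidence of binding.

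The other 4 proteinases did not pass the test in any comparison without a replicate block. With the block, edgeR called MMP3 (adjusted p = 0.0418) and MMP14 (0.00421) in PDGF-BB against control. MMP3 (ENSG00000149968, chr11:102835801-102843803, minus strand), which also activates other MMPs, was at low counts (21 to 76 per library) and had 18.2, 16.0, 18.5, 10.6 and 13.5 CPM with both proteins and 22.4, 15.5, 14.3, 17.1 and 14.6 CPM with PDGF-BB alone. It had 11.8, 11.4, 10.4, 6.69 and 10.8 CPM with eNAMPT alone and 14.4, 11.9, 6.89, 9.08 and 8.87 CPM in control cells. All 5 PDGF-BB libraries lay above the control mean, and the lowest of them (14.3 CPM) fell just under the highest control library (14.4 CPM). Its log2 fold change in PDGF-BB against control, 0.71 ± 0.22 (SE) was the highest of the 9 genes, but its 95% interval ran from 0.27 to 1.15 and its edgeR quasi-likelihood adjusted p was 0.123. In both proteins against control it was 0.57 (adjusted p = 0.251), and in both against eNAMPT 0.58 (adjusted p = 0.256).

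MMP14 (ENSG00000157227, chr14:22836557-22849027, plus strand) averaged 295 ± 49.4 CPM with both proteins, 319 ± 39.5 CPM with PDGF-BB, 267 ± 33.6 CPM with eNAMPT and 270.1 ± 32.8 CPM in control cells (SD, n = 5 each). Its log2 fold change in PDGF-BB against control was 0.24 (adjusted p = 0.376), and the groups overlapped in each comparison. MMP1 (ENSG00000196611, chr11:102789920-102798160, minus strand) varied widely between replicates: the 5 libraries with PDGF-BB alone spanned 6.20 to 27.9 CPM, those with both proteins 10.6 to 16.1 CPM, those with eNAMPT 5.74 to 12.4 CPM and control libraries 5.61 to 17.7 CPM. With 18 to 90 counts per library, its log2 fold changes of 0.31, 0.18 and 0.41 in the 3 PDGF-BB comparisons lay within that spread (adjusted p = 0.846, 0.901 and 0.713). MMP2 (ENSG00000087245, chr16:55389700-55506691, plus strand) averaged 39.7 ± 8.96 CPM with both proteins, 35.2 ± 7.31 CPM with PDGF-BB, 38.8 ± 11.1 CPM with eNAMPT and 39.5 ± 6.84 CPM in control cells, with log2 fold changes of -0.17 to 0.04 in the same comparisons.

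Among the inhibitors, TIMP2 did not pass the test, and TIMP1 passed it only with a replicate block. TIMP1 (ENSG00000102265, chrX:47582313-47586789, plus strand) lies within SYN1 on the other strand, with no shared exon bases. It averaged 539 ± 87.1 CPM with both proteins, 538 ± 88.5 CPM with PDGF-BB, 455 ± 62.8 CPM with eNAMPT and 473 ± 43.3 CPM in control cells (SD, n = 5 each). Its log2 fold changes were 0.19 in PDGF-BB against control (adjusted p = 0.544), 0.19 in both against control (adjusted p = 0.476) and 0.24 in both against eNAMPT (adjusted p = 0.274). With a replicate block in the edgeR fit, TIMP1 was called in these comparisons (adjusted p = 0.0188, 0.0136 and 0.000226). TIMP2 (ENSG00000035862, chr17:78852977-78925387, minus strand) had the closest group means of the 9 genes relative to their level. They were 361 ± 27.5 CPM with both proteins, 362 ± 24.02 CPM with PDGF-BB, 359.9 ± 28.2 CPM with eNAMPT and 368 ± 47.4 CPM in control cells. Its log2 fold changes in the 3 comparisons were -0.02, -0.03 and 0.01, each with a standard error of 0.08.

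**Figure D3:**
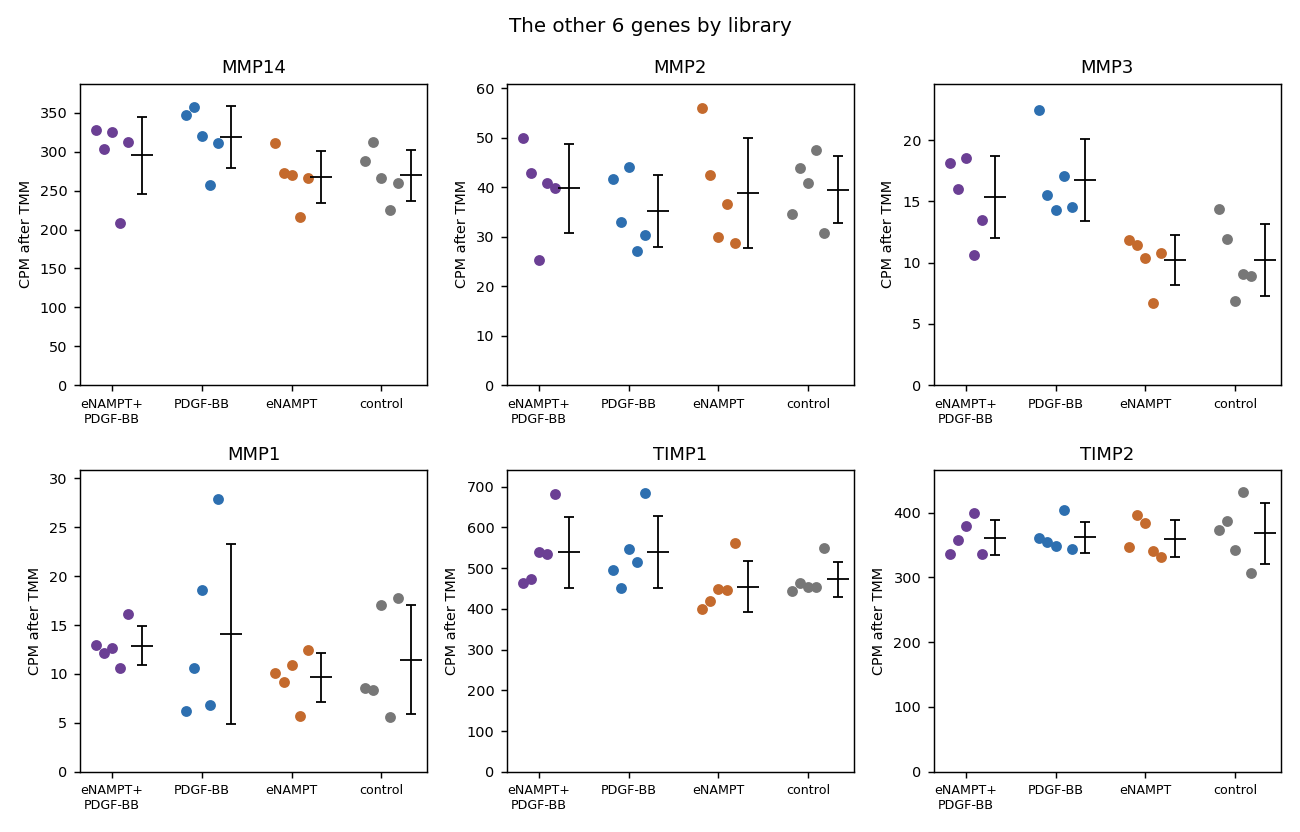
Level of MMP1, MMP2, MMP3, MMP14, TIMP1 and TIMP2 (CPM after TMM scaling) in each library, as points in replicate order, with group mean and 1 SD. Both groups with PDGF-BB overlap the control group in every panel, and MMP1 with PDGF-BB alone spans 6.20 to 27.9 CPM.

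eNAMPT moved none of the 9 genes past the test, with or without PDGF-BB. In eNAMPT against control the log2 fold changes ran from -0.23 for MMP1 (95% interval -0.87 to 0.41) to 0.05 for ADAMTS1 (-0.15 to 0.25), with -0.08 for ADAMTS6 (-0.40 to 0.23) and -0.05 for TIMP3 (-0.22 to 0.12). In both proteins against PDGF-BB they ran from -0.13 for MMP3 to 0.17 for MMP2, with 0.06 for ADAMTS1 (-0.13 to 0.26), 0.02 for ADAMTS6 (-0.28 to 0.31) and -0.05 for TIMP3 (-0.22 to 0.12). The intervals bound any eNAMPT effect on ADAMTS1 and TIMP3 more closely than on MMP1. None of the 9 genes had an unadjusted p under 0.05 in either comparison, and edgeR, DESeq2 and limma-voom each called 0 of them. Few genes responded at all: 0.0743% of the 12111 genes were called in eNAMPT against control and 0.0578% in both against PDGF-BB, which is 9 and 7 genes, all higher. None of the 9 genes had groups that stood apart in either comparison, where 0.396% and 0.322% of all genes had non-overlapping, higher groups. Neither comparison shows that the levels were equal.

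The interaction, which asks whether the eNAMPT effect differed with and without PDGF-BB, called none of the 9 genes and 0 of all 12111 genes (0%) by edgeR, DESeq2 or limma-voom, while 406 genes had an unadjusted p under 0.05 by edgeR, none of them among the 9. The difference in log2 fold change was 0.01 for ADAMTS1 (95% interval -0.27 to 0.30), 0.10 for ADAMTS6 (-0.33 to 0.53) and 0.00 for TIMP3 (-0.24 to 0.24). The extremes were -0.13 for MMP3 and 0.20 for MMP2.

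**Figure D4:**
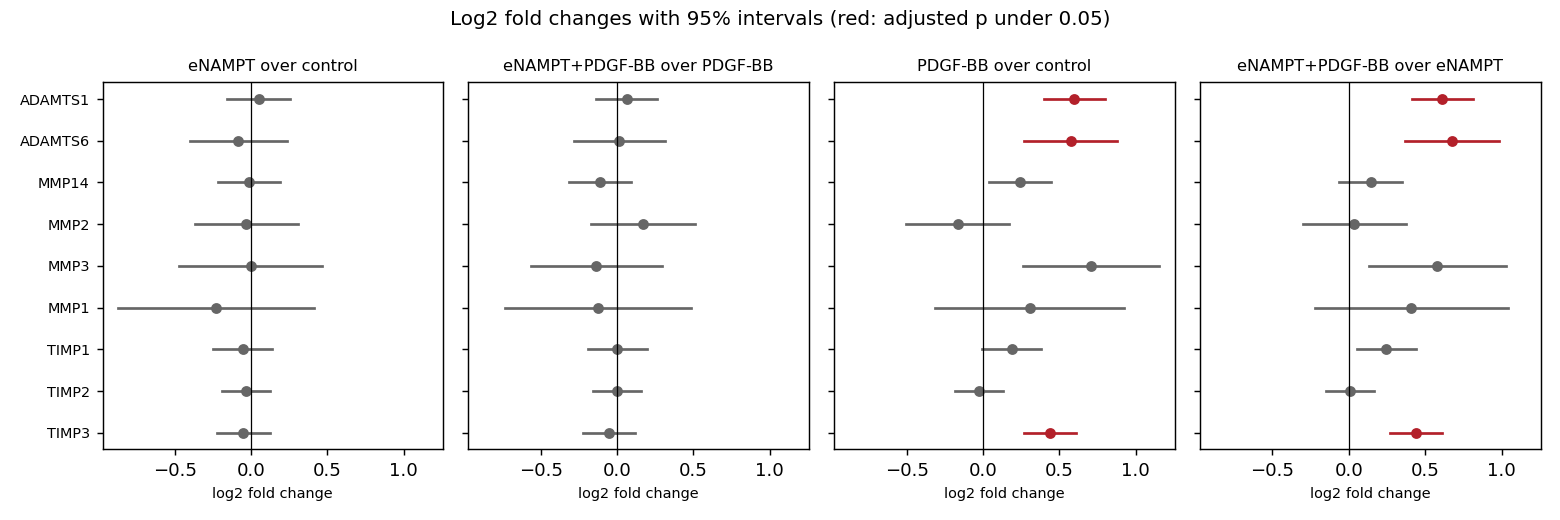
Log2 fold change with its 95% interval for the 9 genes in 4 comparisons, the first-named group over the second in each panel title, with genes called at an adjusted p under 0.05 in red. ADAMTS1, ADAMTS6 and TIMP3 are red in both comparisons that add PDGF-BB, and no gene is red in those that add eNAMPT.

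Summed per kilobase, proteinase and inhibitor transcripts both had higher means in the groups with PDGF-BB, and their ratio overlapped between all groups. The 6 proteinases summed to 134 ± 12.7 CPM per kb with both proteins, 138 ± 11.9 with PDGF-BB, 107 ± 11.5 with eNAMPT and 108 ± 9.14 in control cells (SD, n = 5 each). The 3 TIMPs summed to 613 ± 61.6 CPM per kb with both proteins, 620 ± 56.95 with PDGF-BB, 506 ± 49.3 with eNAMPT and 524 ± 30.5 in control cells. MMP14 and ADAMTS1 make up most of the first sum and TIMP1 and TIMP3 most of the second. The ratio of proteinase to TIMP transcripts was 0.220 ± 0.0260 with both proteins, 0.223 ± 0.0203 with PDGF-BB, 0.213 ± 0.0218 with eNAMPT and 0.207 ± 0.0151 in control cells. TIMP3 made up 29.9 to 37.5% of the TIMP sum with both proteins, 29.8 to 38.1% with PDGF-BB, 25.2 to 32.1% with eNAMPT and 25.02 to 33.2% in control cells. These sums are descriptions, rest on the same untested assumption about read coverage as the levels per kilobase, and were not tested.

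**Figure D5:**
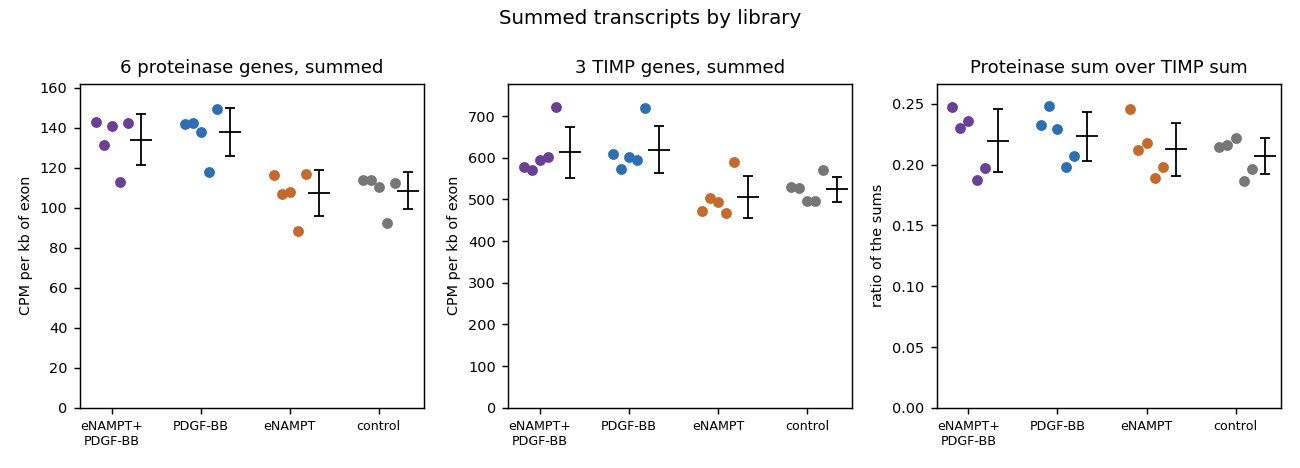
Summed level per library of the 6 proteinase genes and of the 3 TIMP genes (CPM per kb of exon), and the ratio of the sums, as points in replicate order with group mean and 1 SD. Both sums have higher means with PDGF-BB (138 against 108 and 620 against 524 in PDGF-BB and control cells), and the ratios of the 4 groups overlap between 0.186 and 0.249.

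No other tested gene of the metalloproteinase families was called in any of the 6 comparisons, which is near the background of 0 to 1.98% of all genes called and so is no result about these families. Of 19 other MMP genes only 4 were expressed enough to test, and 7 had 0 counts in all libraries. MMP16, a membrane-type MMP like MMP14, averaged 54.8 ± 6.55 CPM with both proteins, 63.6 ± 7.92 with PDGF-BB, 60.8 ± 7.71 with eNAMPT and 62.0 ± 12.7 in control cells, and MMP19 averaged 3.24 to 4.56 CPM. Of 24 other ADAMTS and ADAMTS-like genes, 23 were in the table and 11 were tested, led by ADAMTS2, which trims procollagens (111 to 117 CPM by group), and ADAMTS12 (17.5 to 20.6 CPM). Of 12 membrane ADAM proteinases 8 were tested, led by ADAM12 (201 to 228 CPM) and ADAM19 (91.2 to 121 CPM). In PDGF-BB against control the median log2 fold changes were 0.14 over the 4 MMPs, -0.22 over the 11 ADAMTS genes and 0.06 over the 8 ADAMs.

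Of 17 genes that activate, inhibit or regulate metalloproteinases, 15 were tested. That 0 fell is near the background of 0.165 to 0.347% of all genes called lower in the comparisons with PDGF-BB. PLAUR, the cell-surface receptor for urokinase, which helps to turn plasminogen into the MMP-activating proteinase plasmin, averaged 607 ± 51.3 CPM with both proteins, 608 ± 41.2 with PDGF-BB, 378 ± 49.04 with eNAMPT and 402 ± 32.3 in control cells. It rose by a log2 fold change of 0.60 in PDGF-BB against control (edgeR quasi-likelihood adjusted p = 1.36e-06), 0.60 in both against control and 0.68 in both against eNAMPT. PLAT, a plasminogen activator, rose with both proteins, to 64.3 ± 6.32 CPM against 45.4 ± 3.38 in eNAMPT cells (log2 fold change 0.50, adjusted p = 0.00338). With PDGF-BB alone it averaged 54.6 ± 4.55 CPM, against 47.3 ± 3.86 CPM in control cells. That comparison did not pass the test (log2 fold change 0.21, edgeR quasi-likelihood adjusted p = 0.528). For PLAT, both proteins against PDGF-BB did not pass either (log2 fold change 0.23, 95% interval 0.02 to 0.44), and those groups overlapped. The PLAT interaction did not pass (0.29, 95% interval -0.01 to 0.59, edgeR quasi-likelihood adjusted p = 0.999). In both proteins against control its log2 fold change was 0.44 (adjusted p = 0.0113, but 0.0632 without control replicate 4 and 0.0599 without eNAMPT+PDGF-BB replicate 5). The list's median log2 fold change was 0.13, -0.01 and 0.02 in the 3 comparisons.

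Of 26 matrix substrates and neighbours, 24 were tested and 3 rose in each PDGF-BB comparison, HBEGF, TNC and THBS1, where 1.05%, 1.63% and 1.18% of all genes tested were called higher. That 0 fell is near the background of 0.165%, 0.347% and 0.347% called lower. HBEGF, an EGF receptor ligand that metalloproteinases release from the cell surface, averaged 249 ± 41.3 CPM with both proteins, 211 ± 35.4 with PDGF-BB, 105 ± 27.6 with eNAMPT and 104.9 ± 15.4 in control cells. Its log2 fold change was 1.01 in PDGF-BB against control (adjusted p = 4.12e-07), and 1.25 in each of the other comparisons with PDGF-BB. TNC, the matrix glycoprotein tenascin-C, had log2 fold changes of 0.53, 0.60 and 0.56 (adjusted p = 0.00129, 0.000108 and 0.000414). THBS1, thrombospondin-1, had 0.39, 0.38 and 0.41 (adjusted p = 0.0226, 0.0169 and 0.00997). The THBS1 calls were lost without control replicates 1, 2 or 4 and without replicate 5 of either PDGF-BB group, without PDGF-BB replicate 3, and, against eNAMPT, without eNAMPT replicate 1 or eNAMPT+PDGF-BB replicate 5 (adjusted p = 0.0506 to 0.107). The abundant matrix genes COL1A1 (3199 to 3360 CPM by group) and FN1 (2966 to 2992 CPM) did not pass in any comparison, and the list's median log2 fold change was 0.03, 0.00 and 0.00. Under spike-in scaling HBEGF kept its 3 calls, and PLAUR, PLAT, TNC and THBS1 lost theirs (adjusted p = 0.102 to 0.999). Their log2 fold changes under it were 0.65 for PLAUR, 0.54 for TNC and 0.41 for THBS1 in PDGF-BB against control, and 0.28 to 0.53 for the 4 genes in the comparisons with both proteins.

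The genes most like each called gene were found as those with the smallest root mean square difference in log2 CPM, each gene centred on its control mean, over the 20 libraries and 12107 genes. For ADAMTS1 they were TNC (0.131), MAP2K3 (0.140) and AKAP12 (0.145), where the median gene differed by 0.562. For ADAMTS6 they were AKAP12 (0.183), KITLG (0.197) and F3 (0.199), against a median of 0.585. For TIMP3 they were DCBLD2 (0.117), ATP2B1 (0.125) and CCND1 (0.126), against a median of 0.438. All share the 20 libraries with the gene they are set beside. Among themselves, ADAMTS1 and TIMP3 differed by 0.234, ADAMTS1 and ADAMTS6 by 0.254, and TIMP3 and ADAMTS6 by 0.351.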

How the data were processed

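RNA from 20 pericyte libraries was sequenced, and the authors deposited whole-number read counts per gene in 2 tables, one of which also holds their log2 fold changes and adjusted p-values per gene. Per the submitters' processing notes, DESeq2 1.18.1, featureCounts 1.6.4, STAR 2.6.1a and FastQC 0.11.7 were used, on the GRCh38 build; settings and strand of counting are not given in the sources used here. The counts come from the table that also holds the comparisons; no count of the other table was lower, and 97.9 to 100% of each named gene's counts were in the table used. The 99 spike-in transcripts (92 ERCC, 7 SIRV) were kept out of library sizes.

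Counts as deposited were fitted with edgeR 4.0.16 (R 4.3.3): TMM, filterByExpr (12111 genes kept), a mean per group over all 20 libraries, and the two-sided quasi-likelihood test with Benjamini-Hochberg adjustment over all genes tested within a comparison, called under 0.05. Standard errors are the log2 fold change over the root of F, and 95% intervals use the t distribution. CPM per kb uses the merged exons of GENCODE 29, whose gene starts equal the file's positions. The scripts were tested on simulated data. Counting without strand could add reads of overlapping genes, but those that share exon bases with a named gene had 46 counts or fewer over all libraries.

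The 9 genes and all gene lists were chosen with earlier results of these data known. The text names the 9 genes, and from each list every gene called in a comparison and the 2 with the highest mean CPM, plus the 3 genes most like each called gene (mean log2 CPM of at least 1, prior count 2). One gene that this rule names is not reported here. Promoters come from RefSeq. Alternatives were DESeq2 1.42.0, limma-voom (limma 3.58.1), RLE and spike-in scaling, other filters, the other count table, a threshold of 0.01, the compared groups alone, a replicate block, and leaving out each library.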

Additional observations from a re-analysis of the deposited data

Results flagged for a closer look

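Within a group of 5, 1 library stood apart in 5 of the 36 gene and group combinations examined, as judged by its gap to the nearest library relative to the group's range (over 0.71). Chance flags about 1 in 20 groups. ADAMTS1 was at 232 CPM in replicate 5 of eNAMPT, above the other 4 libraries at 146 to 170 CPM. MMP3 was at 6.69 CPM in replicate 4 of eNAMPT, below the others at 10.4 to 11.8 CPM. MMP14 was at 209 CPM in replicate 4 of eNAMPT+PDGF-BB, below the others at 303 to 327 CPM. TIMP1 was at 549 CPM in replicate 5 of control, above the others at 443 to 462 CPM. TIMP2 was at 404 CPM in replicate 4 of PDGF-BB, above the others at 344 to 360 CPM.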

How the results depend on the processing

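Spike-in scaling gave 0 called genes of the 9 in PDGF-BB against control, both proteins against control and both against eNAMPT, and a replicate block gave 6 in PDGF-BB against control, adding MMP3 (adjusted p = 0.0418), MMP14 (0.00421) and TIMP1 (0.0188). The block also called TIMP1 in both against control (0.0136) and both against eNAMPT (0.000226). The labels do not say whether samples of the same replicate number belong together. Same-numbered libraries of different groups had correlations of 0.00138 to 0.176 (12 of 30 over 0.1), and differently numbered ones -0.1135 to 0.114. Of 20 libraries, 13 correlated best with one of their own number. The fit without a block takes no account of this, and what same-numbered libraries share was not tested. Without single libraries, 2 to 3 genes were called in PDGF-BB against control and in both against control, 3 in both against eNAMPT, and 0 in the other comparisons.

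Signs turned only for values that passed no test. Under spike-in scaling the log2 fold changes were -0.13 for MMP2 and -0.0278 for MMP14 in both against control. They were -0.10 for MMP2, -0.0376 for MMP14 and -0.13 for TIMP2 in both against eNAMPT, -0.0733 for ADAMTS1 and -0.12 for ADAMTS6 in both against PDGF-BB, and -0.13, -0.0404 and -0.19 for ADAMTS1, ADAMTS6 and TIMP3 in the interaction. MMP2 in both against control was -0.0147 with limma-voom and -0.0031 with the block. TIMP3 in the interaction was -0.0030 with limma-voom, -0.0073 without a filter, -0.0009 with a filter of 1 CPM in 5 libraries and -0.0017 with the other table. Leaving out 1 library, PDGF-BB against control ran from -0.0892 to 0.51 for MMP1 and -0.0849 to 0.0407 for TIMP2. Both against control ran from -0.0042 to 0.39 for MMP1, -0.0839 to 0.13 for MMP2 and -0.0853 to 0.0392 for TIMP2. Both against eNAMPT ran from -0.0563 to 0.21 for MMP2 and -0.0325 to 0.0432 for TIMP2. eNAMPT against control ran from -0.0755 to 0.11 for ADAMTS1, -0.21 to 0.0318 for ADAMTS6 and -0.11 to 0.0187 for TIMP3. Both against PDGF-BB ran from -0.0689 to 0.10 for ADAMTS6. The interaction ran from -0.0423 to 0.14 for ADAMTS1, -0.0144 to 0.23 for ADAMTS6 and -0.0679 to 0.0655 for TIMP3. The cause was not tested.

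Over all genes, 147 were called in PDGF-BB against control, but 88 at 0.01, 40 with spike-in scaling and 377 with the block. In both against control 240 were called, against 137, 50 and 510 under the same 3 settings, and in both against eNAMPT 185, against 117, 31 and 511. eNAMPT against control had 9, but 14 with DESeq2 or no filter and 21 with the block. Both against PDGF-BB had 7, but 11 with DESeq2 or the compared groups alone, 12 without a filter, 15 with the block and 2 with spike-in scaling. The interaction had 0, but 3 without a filter and 7 with the block. Group levels moved by over 1 SD in 21 of 108 recomputed values, all with the other table. Low counts of MMP1 and MMP3 limit what could be detected.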

Other observations

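For 5 of the 9 genes the same replicate number held the extreme library in all 4 groups. Replicate 5 was highest in all 4 groups for ADAMTS1, ADAMTS6, MMP1 and TIMP1, and replicate 4 was lowest in all 4 groups for MMP14. Over the 12111 genes tested, replicate 5 was highest in all 4 groups for 2.07%, and replicate 4 was lowest in all 4 for 0.867%. Any one number was highest in all 4 groups for 4.35% of genes and lowest for 3.68%. The labels do not say what a replicate number stands for. MMP9, a gelatinase named after its values were seen, had 78 counts over all 20 libraries, a mean of 1.17 CPM.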
